A study of Mus musculus with 18 samples.

Results

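Lung epithelial cells make cholesterol, fatty acids and the phospholipids of surfactant, and 32 genes of these pathways are described here across the 4 genotypes of a mouse study of the long non-coding RNA Falcor and its neighbouring gene Foxa2. The genes were taken from a list of enzymes and regulators and were matched by Ensembl identifier. Of the 32, 31 were measured, out of 15544 genes in the deposited values, and all 31 were among the 15249 genes tested. They comprise 14 enzymes of the sterol branch, 3 regulators of sterol synthesis, 10 enzymes of fatty acid synthesis and modification, and 4 enzymes that make or remodel phosphatidylcholine or its precursors. Hmgcs1 was not analysed here.

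Total RNA was sequenced from lung cells of mice aged 10 to 12 weeks, captured on magnetic beads through EpCAM, a surface protein of epithelial cells. There were 5 libraries from wild-type mice (replicates 1 to 5), 5 from Falcor-/- mice (replicates 6 to 10), 4 from Foxa2+/- mice (replicates 11 to 14) and 4 from mice labelled double-heterozygous, with Falcor+/- and Foxa2+/- together (replicates 15 to 18). The Foxa2 protein is a forkhead transcription factor active in lung epithelium, and Falcor, listed as 9030622O22Rik, is transcribed beside its gene. The comparisons ask how lipid synthesis genes differ from wild type after loss of Falcor, after loss of one Foxa2 allele, and in the combined heterozygote. Values are log2 levels that the authors had already made uniform in distribution between libraries, so a difference of 1 is a 2-fold difference, and every difference is relative to the other genes of the same library. The read depth of the libraries is unknown. The labels do not say whether each library came from a separate animal, so p-values measure the spread between these libraries.

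The targeted genes and the cell type markers were read first. Falcor was at 9.68 to 10.72 in wild type and 5.39 to 7.27 in Falcor-/-, and Foxa2 was at 12.83 to 13.03 in wild type and 12.35 to 12.47 in Foxa2+/-. In the libraries labelled double-heterozygous Foxa2 was at 12.11 to 12.58, but Falcor was at 11.50 to 11.86, above wild type and overlapping the 11.46 to 11.96 of Foxa2+/-. The Falcor level therefore goes against that label, and the group is called "labelled double-heterozygous" throughout. Epcam was at 13.75 to 14.48 and Cdh1, the epithelial cadherin, at 15.36 to 15.88 over the 18 libraries. Of 12 markers of alveolar type 2 cells, the cells that make surfactant, 0 changed in any of the 6 comparisons between genotypes. Of 12 endothelial markers, 11 were lower in Foxa2+/- and 11 in the labelled double-heterozygous libraries than in wild type, and 1 was lower in Falcor-/-. No level in the data is below 1, so a marker level above 0 does not show that its cell type was captured. RNA is averaged over all captured cells, so fewer cells of a type and less RNA per cell cannot be told apart.

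As background, the sterol branch runs from the mevalonate pathway through squalene and lanosterol to cholesterol. The transcription factors SREBP1 and SREBP2, encoded by Srebf1 and Srebf2, drive genes of lipid synthesis when membrane sterol is low, and Insig1 encodes a protein that holds their precursors in the endoplasmic reticulum when sterol is high. SREBP2 acts mainly on sterol genes and the SREBP1c form mainly on fatty acid genes. In the alveolus, type 2 cells use fatty acids to build dipalmitoyl phosphatidylcholine, the main surface-active lipid of surfactant.

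Most of the lipid synthesis genes did not pass the test in any comparison, and the shares that passed were near or below those of all genes. Srebf1 and the squalene synthase gene Fdft1 were higher in the labelled double-heterozygous libraries than in wild type, 2 of 31 members beside 7.21% of all genes. Acly, Acaca and Chka, which encode enzymes of fatty acid and phosphatidylcholine synthesis, were lower in Falcor-/- than in Foxa2+/-, 3 of 31 beside 8.1% of all genes. A gene is counted as changed at an adjusted p below 0.05 in limma, with Benjamini-Hochberg adjustment over all 15249 genes. Neither Falcor-/- nor Foxa2+/- alone gave a changed member against wild type.

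**Figure D1:**
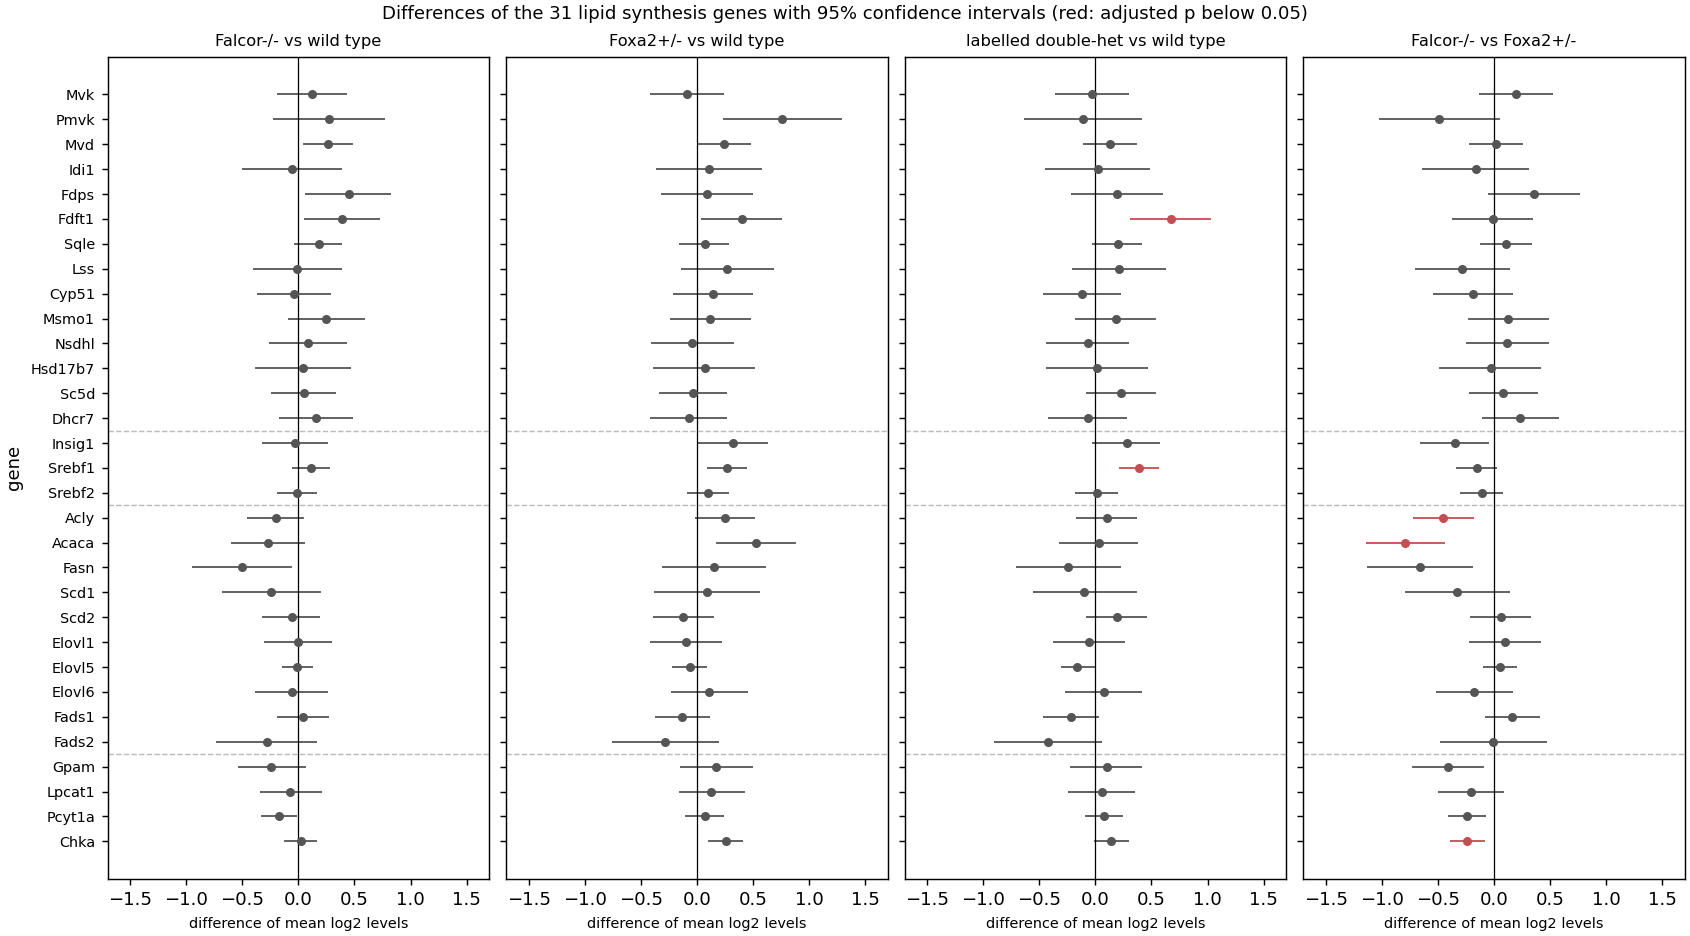
Difference in mean log2 level (horizontal axis) for the 31 measured genes (vertical axis, branches separated by dashed lines) in 4 comparisons. Points are limma estimates, bars are 95% confidence intervals, and red marks an adjusted p below 0.05. The red points are Srebf1 and Fdft1 in the labelled double-heterozygous libraries against wild type, and Acly, Acaca and Chka in Falcor-/- against Foxa2+/-.

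The sterol branch was compared with wild type in each mutant genotype. In Falcor-/-, 0 of the 31 genes changed by limma, where 9.47% of all genes tested changed (5.23% higher and 4.24% lower). At an unadjusted p below 0.05 by limma there were 5 of the 31, beside 5109 of all 15249 genes. None of the 31 had Falcor-/- libraries apart from all wild-type libraries, beside 6.53% of all genes. The 14 sterol enzymes had a median difference of 0.14, with 11 above 0 and 3 below, beside a median of 0.03 over all genes. The enzymes with the smallest p were Fdft1, Mvd and Fdps. Mvd, which encodes the decarboxylase that makes isopentenyl diphosphate, differed by 0.26 (adjusted p = 0.105, limma), and Fdps, the farnesyl diphosphate synthase, by 0.45 (adjusted p = 0.106, limma).

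In Foxa2+/-, 0 of the 31 genes changed by limma, against 6.11% of all genes (1.96% higher and 4.15% lower). At an unadjusted p below 0.05 by limma there were 7 of the 31, beside 2931 of all 15249 genes. The sterol enzymes had a median difference of 0.10, with 10 above 0 and 4 below, beside 0.04 over all genes. Pmvk, the kinase that makes mevalonate diphosphate, had the largest difference among the sterol enzymes here. Its levels were 13.50, 13.57, 13.87 and 13.06 in Foxa2+/- and 12.79, 12.65, 13.25, 12.63 and 12.38 in wild type, so 3 of 4 Foxa2+/- libraries lay above every wild-type library. The difference was 0.76 (SE 0.25, adjusted p = 0.0912, limma). When only these genotypes were fitted, 4 members passed, namely Pmvk, Srebf1, Acaca and Chka, beside 1142 of the 15249 genes.

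In the labelled double-heterozygous libraries, 2 of the 31 genes were higher than in wild type and 0 were lower, where 14.8% of all genes changed, 7.21% higher and 7.57% lower. The sterol enzymes had a median difference of 0.08, with 9 above 0 and 5 below, beside 0.07 over all genes. The sterol enzyme that rose was Fdft1, which joins 2 farnesyl diphosphates into squalene, the committed step to sterols. Fdft1 was at 13.05, 12.69, 12.63 and 12.21 in the labelled double-heterozygous libraries and at 12.10, 12.24, 11.89, 11.73 and 11.90 in wild type. All but replicate 18, at 12.21, lay above the highest wild-type library. The difference was 0.67 (SE 0.17, 95% confidence interval 0.31 to 1.03, adjusted p = 0.0137, limma), and the exact permutation test gave p = 0.0159. Without replicate 15, the highest of the group, the difference was 0.54 and its adjusted p by limma was 0.0608.

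Fdft1 was also at 12.19, 12.22, 12.81, 12.36 and 12.24 in Falcor-/- and at 12.78, 12.05, 12.38 and 12.28 in Foxa2+/-. These groups lay between wild type and the labelled double-heterozygous group in mean and overlapped both. Their differences from wild type were 0.39 (adjusted p = 0.105, limma) and 0.40 (adjusted p = 0.202, limma). Tested directly, the labelled double-heterozygous group differed from Falcor-/- by 0.28 (95% confidence interval -0.08 to 0.64) and from Foxa2+/- by 0.27 (-0.10 to 0.65), so Fdft1 was not shown to differ between mutant groups. The comparisons with wild type share the same 5 control libraries.

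None of the other sterol enzymes passed against wild type in the fit of all 18 libraries. Idi1, the isomerase, Cyp51, the lanosterol demethylase, and Nsdhl, a sterol dehydrogenase, differed from wild type by -0.12 to 0.14 over the 3 mutant genotypes. Hsd17b7, a sterol ketoreductase, differed by 0.01 to 0.07. Sqle, the squalene epoxidase, differed by 0.07 to 0.20, and in the labelled double-heterozygous group it passed only without replicate 18 (0.30, adjusted p = 0.0493, limma). Mvk, Lss, Msmo1, Sc5d and Dhcr7, which encode mevalonate kinase, lanosterol synthase, a methylsterol oxidase, a sterol desaturase and the final reductase of the pathway, gave adjusted p of 0.28 or more by limma against wild type in each mutant genotype.

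Among the regulators, Srebf1 was the member that rose. It was at 15.11, 14.81, 14.90 and 14.79 in the labelled double-heterozygous libraries and at 14.61, 14.59, 14.54, 14.33 and 14.51 in wild type. Every labelled double-heterozygous library was above every wild-type library. Srebf1 and Elovl5 were the 2 members without overlap in this comparison, beside 15.7% of all genes. The difference was 0.39 (SE 0.09, adjusted p = 0.00597, limma), or 131% of the wild-type level, and the exact permutation test gave p = 0.00794, the smallest it can give for 4 against 5.

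In Foxa2+/-, Srebf1 was at 14.74, 14.73, 14.78 and 14.90, again above every wild-type library. The members without overlap in this comparison were 3 (Srebf1, Acaca and Chka), beside 11.4% of all genes without overlap in either direction. The Srebf1 difference was 0.27 (adjusted p = 0.076, limma). In Falcor-/- it was at 14.70, 14.71, 14.81, 14.45 and 14.49, overlapping wild type, with a difference of 0.11 (adjusted p = 0.322, limma). The labelled double-heterozygous group exceeded Foxa2+/- by 0.12 (95% confidence interval -0.07 to 0.31, adjusted p = 0.513, limma) and Falcor-/- by 0.27 (0.09 to 0.45, adjusted p = 0.073, limma). The files hold 1 value per gene, so the Srebf1 isoforms were not told apart.

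Srebf2, the regulator of the sterol genes, differed by -0.01 to 0.10 from wild type in the 3 mutant genotypes. Insig1 was above wild type by 0.32 in Foxa2+/- (adjusted p = 0.233, limma) and 0.28 in the labelled double-heterozygous group (adjusted p = 0.218, limma), and differed by -0.03 in Falcor-/-. The marker levels beside the rise of Srebf1 and Fdft1 were as follows. The summed endothelial markers, on the log2 scale, were at 14.24 to 14.83 in the labelled double-heterozygous libraries and 16.02 to 17.48 in wild type, and 9 of 10 mesenchymal, 4 of 10 macrophage and 6 of 8 alveolar type 1 markers were lower. The alveolar type 2 sum was at 21.19 to 21.28 against 21.15 to 21.30, and 2 of 6 general epithelial markers were higher. The highest markers weigh most in the type 2 sum, and their levels are capped by the uniform distribution. The part of these markers in the rise was not tested.

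**Figure D2:**
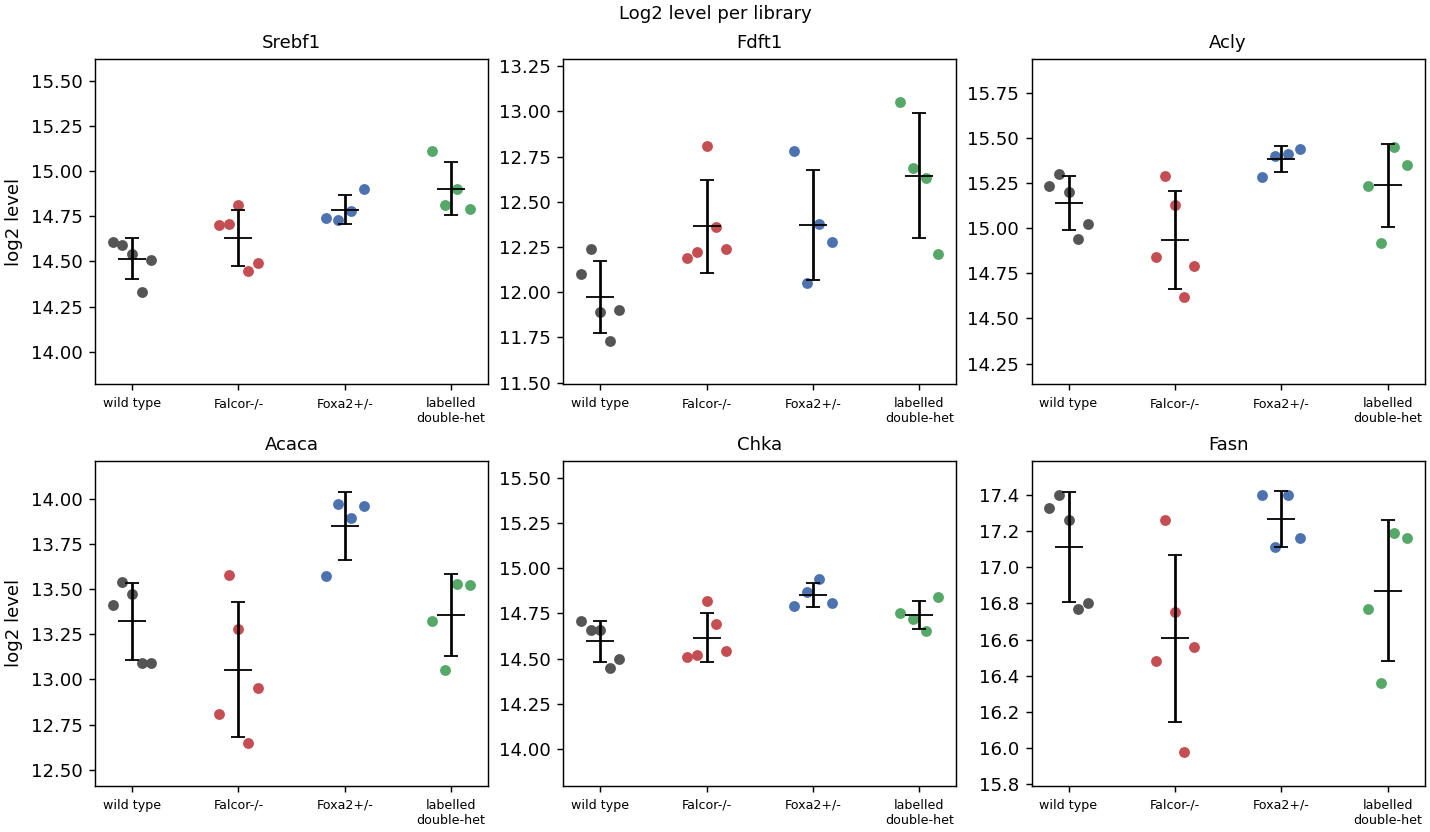
Log2 level (vertical axis) of Srebf1, Fdft1, Acly, Acaca, Chka and Fasn in each of the 18 libraries, by genotype (horizontal axis). Points are libraries, horizontal bars are means and error bars are SD, and each panel has its own scale. All 4 labelled double-heterozygous points of Srebf1 lie above the 5 wild-type points, and the Falcor-/- points of Acaca spread from 12.65 to 13.58.

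Fatty acid synthesis starts in the cytosol with Acly, which makes acetyl-CoA from citrate, and Acaca, the acetyl-CoA carboxylase that makes malonyl-CoA for the fatty acid synthase Fasn. Against wild type, 0 of the 10 fatty acid genes changed in any mutant genotype by limma, with 1 at an unadjusted p below 0.05 in each. Of all 15249 genes, 5109 had such an unadjusted p in Falcor-/-, 2931 in Foxa2+/- and 4542 in the labelled double-heterozygous group. In Falcor-/-, 9 of 10 were below wild type and 1 above, with a median of -0.13, beside 0.03 over all genes. In Foxa2+/- 5 were above and 5 below (median 0.01), and in the labelled double-heterozygous group 4 were above and 6 below (median -0.08). The direct comparison of Falcor-/- with Foxa2+/- gave changed genes: 3 of the 31 members were lower in Falcor-/- and 0 were higher, where 16.7% of all genes changed, 8.1% lower and 8.56% higher. None of the 31 was without overlap, beside 12.3% of all genes.

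Acaca was at 12.81, 13.58, 13.28, 12.65 and 12.95 in Falcor-/- and at 13.57, 13.97, 13.89 and 13.96 in Foxa2+/-. Falcor-/- replicate 7, at 13.58, overlapped the lowest Foxa2+/- library, and the other 4 lay below all of them. Acaca was lower in Falcor-/- by a difference of -0.79 (SE 0.17, 95% confidence interval -1.14 to -0.44, adjusted p = 0.00812, limma), or 57.7% of the Foxa2+/- level. The exact permutation test gave p = 0.0238. Leaving out each of the 9 libraries in turn kept the call.

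Wild type lay between these groups for Acaca, at 13.41, 13.54, 13.47, 13.09 and 13.09. All 4 Foxa2+/- libraries lay above all wild-type libraries, and Falcor-/- overlapped wild type. Foxa2+/- differed from wild type by 0.53 (adjusted p = 0.0744, limma) and Falcor-/- by -0.27 (adjusted p = 0.235, limma). The labelled double-heterozygous libraries were at 13.32, 13.05, 13.53 and 13.52, with a difference from wild type of 0.03, and lay below all Foxa2+/- libraries with a difference of -0.50 (adjusted p = 0.141, limma). In that last comparison 0 members changed by limma, beside 2.43% of all genes (1.06% higher and 1.37% lower). At an unadjusted p below 0.05 by limma there were 3 members, beside 2769 of all 15249 genes. The libraries of 2 members, Acaca and Elovl5, did not overlap, beside 11.9% of all genes.

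Acly was at 14.84, 15.29, 15.13, 14.62 and 14.79 in Falcor-/- and at 15.28, 15.40, 15.41 and 15.44 in Foxa2+/-. Replicate 7 of Falcor-/- again reached the Foxa2+/- range. The difference was -0.45 (SE 0.13, adjusted p = 0.0274, limma), or 73.1% of the Foxa2+/- level, and the exact permutation test gave p = 0.0317. The call was lost in 6 of the 9 fits that left out a library (replicates 6, 9, 10, 12, 13 and 14), with an adjusted p of up to 0.0788, and also with the 2 genotypes fitted alone (adjusted p = 0.0568, limma).

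Fasn, like Acaca and Acly, had its lowest mean in Falcor-/- and its highest in Foxa2+/-, but did not pass the test. It was at 16.48, 17.26, 16.75, 15.98 and 16.56 in Falcor-/-, and at 17.40, 17.11, 17.40 and 17.16 in Foxa2+/-, so replicate 7 overlapped and the other 4 lay below. In wild type it was at 17.33, 17.40, 17.26, 16.77 and 16.80. Falcor-/- minus Foxa2+/- was -0.66 (adjusted p = 0.0508, limma), and Falcor-/- minus wild type was -0.50 (adjusted p = 0.109, limma). Without Falcor-/- replicate 7, the latter was -0.67 (adjusted p = 0.0227, limma), and Acaca then also passed (-0.40, adjusted p = 0.0467).

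The desaturases and elongases, which add double bonds and length to the chains, showed no call. Scd1 and Scd2, which encode stearoyl-CoA desaturases, differed between Falcor-/- and Foxa2+/- by -0.33 (adjusted p = 0.291, limma) and 0.06 (adjusted p = 0.767, limma). Scd1 ranked between 7 and 20 of all genes in every library and took only 8 distinct values in 18 libraries, because equalizing the distributions gives the same level to the same rank. The elongase genes Elovl1, Elovl5 and Elovl6 differed from wild type by -0.16 to 0.11. Elovl5 lay below all wild-type libraries in the labelled double-heterozygous group (-0.16, adjusted p = 0.158, limma). The polyunsaturated fatty acid desaturase genes Fads1 and Fads2 differed there by -0.22 and -0.42 (adjusted p = 0.221 and 0.233, limma).

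Phosphatidylcholine synthesis joins choline, phosphorylated by Chka and activated by Pcyt1a, to diacylglycerol; Gpam adds the first acyl chain to glycerol phosphate, and Lpcat1 remodels phosphatidylcholine towards the dipalmitoyl form. Chka was at 14.51, 14.52, 14.82, 14.69 and 14.54 in Falcor-/- and at 14.79, 14.87, 14.94 and 14.81 in Foxa2+/-. Replicate 8 of Falcor-/- reached the Foxa2+/- range and the other 4 lay below it. Chka was lower by a difference of -0.24 (SE 0.07, adjusted p = 0.0406, limma), or 84.9% of the Foxa2+/- level, with an exact permutation p of 0.0397. The call was lost in 6 of the 9 fits that left out a library (replicates 6, 9, 10, 12, 13 and 14), with an adjusted p of up to 0.13, and also without the intensity trend and with the 2 genotypes fitted alone (adjusted p of up to 0.0822, limma).

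Against wild type, at 14.71, 14.66, 14.66, 14.45 and 14.50, all Foxa2+/- libraries of Chka were higher, by 0.26 (adjusted p = 0.0511, limma). Falcor-/- differed from wild type by 0.02. The other phosphatidylcholine genes also lay below Foxa2+/- in Falcor-/-: Gpam by a difference of -0.41 (adjusted p = 0.0694, limma), Pcyt1a by -0.24 (adjusted p = 0.0535, limma) and Lpcat1 by -0.20 (adjusted p = 0.307, limma). None of these 3 passed.

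Beside the members that were lower in Falcor-/- than in Foxa2+/-, 10 of 12 endothelial, 5 of 10 mesenchymal and 4 of 8 alveolar type 1 markers were higher, and 4 of 10 macrophage markers were lower. The log2 sum of the alveolar type 2 markers was at 20.96 to 21.30 in Falcor-/- and 21.29 to 21.30 in Foxa2+/-, with the same cap on its highest markers. The part of these markers in the differences was not tested. In the labelled double-heterozygous group against Falcor-/-, 0 members changed by limma, where 5.15% of all genes changed (2.15% higher and 3.0% lower). At an unadjusted p below 0.05 by limma there were 5 members, beside 3237 of all 15249 genes. None of the members was without overlap, beside 7.41% of all genes.

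The branches were set beside each other as the mean log2 level of their genes in each library, with no test because the genes were chosen with earlier results known. The sterol mean was 11.43 ± 0.25 in wild type (SD, n = 5), 11.58 ± 0.26 in Falcor-/- (n = 5), 11.57 ± 0.18 in Foxa2+/- (n = 4) and 11.53 ± 0.22 in the labelled double-heterozygous group (n = 4), with overlapping ranges. The fatty acid mean was 14.18 ± 0.18, 14.02 ± 0.24, 14.23 ± 0.08 and 14.10 ± 0.21 in the same order, also overlapping. The phosphatidylcholine mean was 14.69 ± 0.15, 14.57 ± 0.16, 14.84 ± 0.09 and 14.78 ± 0.05, and here the Foxa2+/- range of 14.72 to 14.94 met the Falcor-/- range of 14.36 to 14.73 only at its lowest library.

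The distance between the fatty acid and the sterol mean of a library was also taken. It was 2.85, 2.60, 2.72, 2.88 and 2.71 in wild type and 2.54, 2.59, 2.24, 2.33 and 2.51 in Falcor-/-. All 5 Falcor-/- libraries lay below all wild-type libraries, but by a narrow margin, with 2.59 in Falcor-/- replicate 7 and 2.60 in wild-type replicate 2. No test was made of this distance. In Foxa2+/- it was 2.38, 2.80, 2.63 and 2.80, and in the labelled double-heterozygous group 2.33, 2.30, 2.79 and 2.88, both overlapping wild type. Beside the shorter distance in Falcor-/-, 4 of 10 macrophage, 2 of 10 mesenchymal and 1 of 12 endothelial markers were lower than in wild type, and 0 of 12 alveolar type 2 markers changed. The log2 sum of the macrophage markers was at 14.92 to 16.68 in Falcor-/- and 16.09 to 16.87 in wild type, and that of the mesenchymal markers at 14.29 to 15.96 and 15.03 to 16.47. The part of these markers in the distance was not tested. The distance is a difference of branch means within a library, and its size has no meaning as a ratio between genes because levels were not scaled by gene length.

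**Figure D3:**
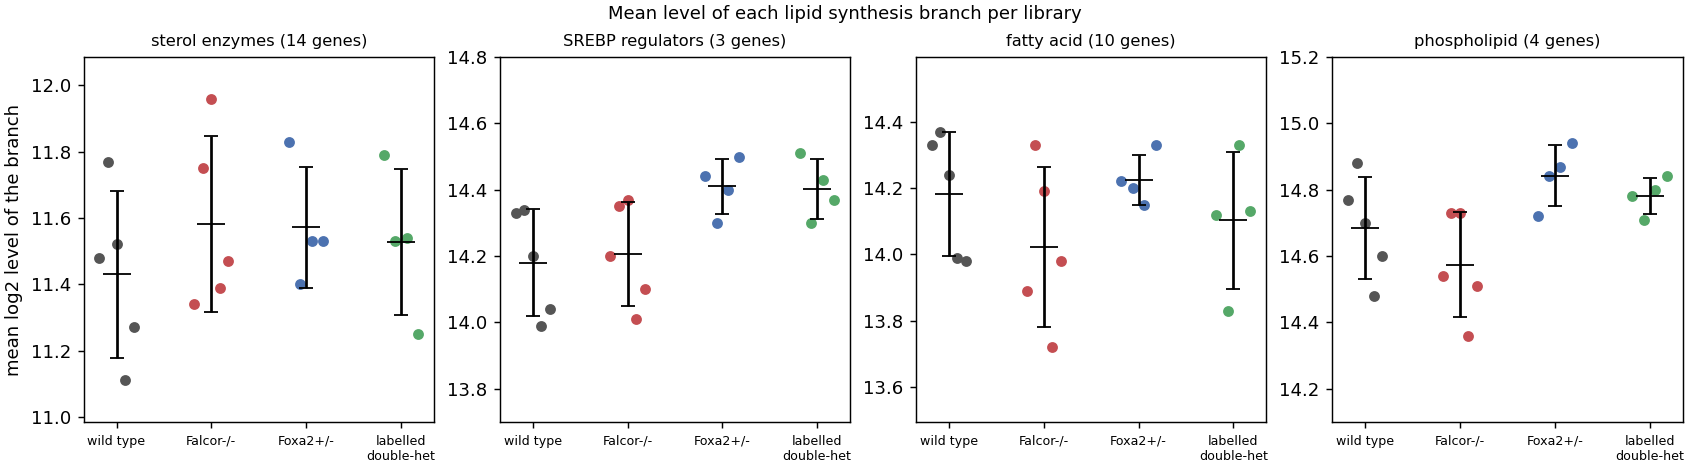
Mean log2 level (vertical axis) of the genes of each branch in each library, by genotype (horizontal axis), in 4 panels with their own scales. Points are libraries, horizontal bars are means and error bars are SD. Sterol and fatty acid means overlap between all genotypes, and the regulators' means are 14.41 ± 0.08 in Foxa2+/- and 14.18 ± 0.16 in wild type.

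Libraries of the same genotype differed from each other in these genes, and the sterol enzymes moved together. After each gene was centred on its genotype means, the median Pearson r over the 91 pairs of sterol enzymes was 0.74 across the 18 libraries, and 84.6% of pairs exceeded 0.5. The median over all pairs of tested genes was 0.00, and 10.1% of pairs exceeded 0.5. Fatty acid genes had a median of 0.57 over 45 pairs, and phosphatidylcholine genes 0.23 over 6 pairs. Pairs of a sterol with a fatty acid gene had a median of 0.42. These values describe the 18 libraries, which share their processing, and carry no test.

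Single libraries stood out within each genotype. In Falcor-/- replicate 8 and in labelled double-heterozygous replicate 15, all 14 sterol enzymes lay above their genotype mean, and in wild-type replicate 4 and labelled double-heterozygous replicate 18, 0 of 14 did. Wild-type replicate 2 and Foxa2+/- replicate 11 had 13 of 14 above. Without the 2 libraries farthest from their genotype mean, Falcor-/- replicate 8 and wild-type replicate 2, the sterol median r was 0.62 and the sterol with fatty acid median r was 0.23. The fatty acid genes did not follow in every library: in Foxa2+/- replicate 11 they were above their mean for 4 of 10 genes, and in labelled double-heterozygous replicate 18 for 6 of 10.

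**Figure D4:**
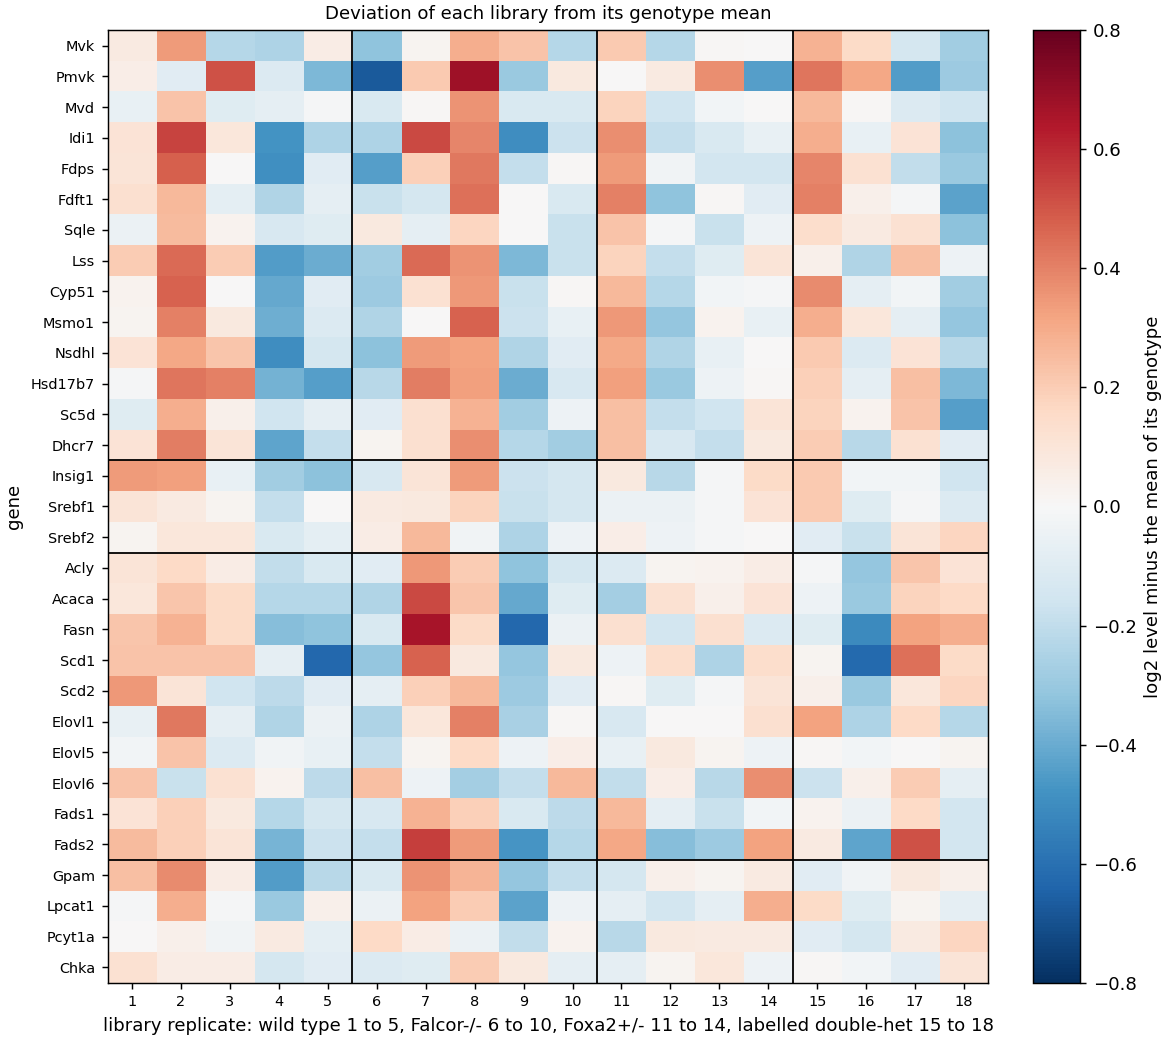
Deviation of each of the 31 genes (rows, by branch) from its genotype's mean log2 level in each of the 18 libraries (columns, by genotype), as colour. The sterol rows of Falcor-/- replicate 8 and labelled double-heterozygous replicate 15 are above the mean in all 14 genes, and those of wild-type replicate 4 are below it in all 14.

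The regulators were set beside each branch in the same way, with no test of a difference in r. Insig1 had a median r of 0.74 with the sterol enzymes and 0.51 with the fatty acid genes, and Srebf1 0.60 and 0.54. Srebf2 had 0.15 with the sterol enzymes and 0.66 with the fatty acid genes. Lss followed the fatty acid genes (0.77) as well as the other sterol enzymes (0.67), and Fads1 and Elovl1 followed the sterol enzymes (0.72 and 0.69). Elovl6 and Pcyt1a had negative medians with the sterol enzymes, of -0.31 and -0.35. Median r between sterol enzymes and markers was 0.38 for alveolar type 2 cells, -0.48 for macrophages and -0.39 for endothelium. It was 0.36 for general epithelial, 0.06 for lymphocyte, -0.10 for mesenchymal, -0.20 for alveolar type 1, -0.22 for ciliated and -0.30 for club markers. With the alveolar type 2 markers, the fatty acid genes had 0.38, the phosphatidylcholine genes 0.40 and the regulators 0.46.

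Because the sterol enzymes moved together between libraries, their promoters were read for the motifs of the factors known to bind sterol genes. RefSeq windows of 300 bases (250 before and 50 after the start, GRCm38.p6) were at hand for 25 of the 31 members. The NF-Y box, CCAAT on either strand, was in 20 of the 25, against 41.9% of the 11131 tested genes with a window. By branch it was in 11 of 11 sterol enzymes, 3 of 3 regulators, 4 of 7 fatty acid genes and 2 of 4 phosphatidylcholine genes. The GC box GGGCGG was in 20 of 25, against 66.2%, and the E-box CACGTG in 5 of 25, against 11.2%. The sterol response element, searched as TCACNCCAC on both strands, was in 1 of 25 (Pcyt1a), against 1.41%. A match is a description of letters in this window and not a bound site. Stretches of 55 bases around the box are shown for the 4 sterol enzymes whose levels followed the other sterol enzymes most closely among those with such a stretch wholly before the start, and for the changed members that had one. Cyp51, with a median r of 0.81, has its box 29 bases before the start, so a stretch of this length would run past the start and is not shown. They are written 5′ to 3′ on the gene's own strand, with the box, CCAAT or its reverse complement ATTGG, in capitals.
Idi1 (chr13:8885536-8885590, plus strand): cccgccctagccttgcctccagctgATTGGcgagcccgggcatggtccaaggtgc
Nsdhl (chrX:72918387-72918441, plus strand): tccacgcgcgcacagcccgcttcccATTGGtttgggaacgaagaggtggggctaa
Msmo1 (chr8:64733604-64733658, minus strand): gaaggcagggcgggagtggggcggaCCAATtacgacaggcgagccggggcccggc
Hsd17b7 (chr1:169969249-169969303, minus strand): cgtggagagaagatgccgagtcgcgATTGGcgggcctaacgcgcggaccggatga
Chka (chr19:3851666-3851720, plus strand): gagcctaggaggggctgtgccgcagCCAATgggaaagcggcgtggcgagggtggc
Srebf1 (chr11:60210472-60210526, minus strand): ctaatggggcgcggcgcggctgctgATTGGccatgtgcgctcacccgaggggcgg
The box shown began 30 bases before an annotated start in Srebf1 and 109 in Nsdhl, with the other 4 between these at 45, 55, 73 and 82. Each is the nearest box with 25 bases on either side wholly before the start. Boxes nearer the start, not shown, begin 14 bases before it in Idi1, 20 in Nsdhl, 12 in Hsd17b7 and 28 in Chka. Nsdhl also has boxes after the start, and Msmo1 and Hsd17b7 have others farther upstream. Srebf1 also has annotated starts farther upstream than the one shown. The window at chr11:60222532-60222831 has a box 166 bases before its start, and that at chr11:60220578-60220877 has none. Idi1 and Nsdhl had a median r of 0.84 with the other sterol enzymes, the highest of the 14. Among the changed members, Chka, Srebf1 and Acly carry the box, which in Acly begins 37 bases after the start. Acaca was not among the members with a box. As 41.9% of the tested genes with a window carry it, the box does not set the changed members apart. Fdft1, the sterol enzyme that changed, had no window.

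Genes of the same pathways outside the 31 members were counted from a fixed list of 73 genes of sterol regulation and export, fatty acid supply and use, and phospholipid synthesis and transport, of which 72 were measured. In Falcor-/- against wild type, 3 of 72 were higher and 2 lower, beside 5.23% and 4.24% of all genes, so these counts are no more than the general rate. Abca1, the cholesterol exporter, fell by 0.64 (adjusted p = 0.038, limma), from 12.41 to 12.96 in wild type to 11.55 to 12.20 in Falcor-/-. Its libraries did not overlap, which held for 2 of the 72 genes, beside 6.53% of all genes. In this comparison 4 of 10 macrophage, 2 of 10 mesenchymal, 1 of 12 endothelial and 1 of 6 lymphocyte markers were lower. Of 6 general epithelial markers, 1 was higher. The part of these markers in the differences was not tested. Slc25a1, the citrate carrier that supplies cytosolic acetyl-CoA, rose by 0.32 (adjusted p = 0.0494, limma), Lpcat4 rose by 0.42 and Cds1 by 0.31 (adjusted p = 0.031 and 0.0446, limma), and Mbtps1, the site-1 protease that cleaves SREBP precursors, fell by 0.19 (adjusted p = 0.0367, limma).

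In Foxa2+/- against wild type, 1 of 72 was higher and 1 lower, beside 1.96% and 4.15% of all genes. Pnpla2, the triglyceride lipase, rose by 0.37 (adjusted p = 0.0227, limma), and Agpat4, an acyltransferase of phospholipid synthesis, fell by 0.54 (adjusted p = 0.0498, limma). In the labelled double-heterozygous group 6 of 72 were higher and 3 lower, beside 7.21% and 7.57% of all genes, so the count of higher genes is near the general rate and that of lower genes below it. The long-chain acyl-CoA synthetase gene Acsl1 rose by 0.79, from 12.58 to 12.82 in wild type to 13.18 to 13.88 (adjusted p = 0.00252, limma), and Acsl5, of the same family, rose by 0.37 (adjusted p = 0.0162, limma). Me1, the malic enzyme that makes NADPH for lipid synthesis, rose by 0.55 (adjusted p = 0.0116, limma), and Slc25a1 rose by 0.40 (adjusted p = 0.0166, limma). Chpt1, the choline phosphotransferase, rose by 0.30 (adjusted p = 0.0145, limma), and Slc44a1, a choline transporter, by 0.18 (adjusted p = 0.0239, limma). Agpat4 fell by 0.59 (adjusted p = 0.0182, limma), and Acacb and Thrsp were also lower. Among the 15 measured genes of fatty acid supply, 4 were higher and 2 lower, with differences from -1.26 to 0.83 over all 15. Against wild type, 11 of 12 endothelial markers were lower and 2 of 6 general epithelial markers were higher, both in Foxa2+/- and in the labelled double-heterozygous group. The part of these markers in the differences of the related genes was not tested.

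Between the mutants, Falcor-/- against Foxa2+/- had 4 of 72 higher and 8 lower, beside 8.56% and 8.1% of all genes. Acss2, which makes acetyl-CoA from acetate, was lower by a difference of -0.74, Me1 by -0.55 and Mfsd2a, a transporter of lysophosphatidylcholine, by -1.96. These 3 were chosen after their values were seen. Of the same list, 1 was higher and 1 lower in the labelled double-heterozygous group than in Foxa2+/-, beside 1.06% and 1.37% of all genes, and 3 were higher and 0 lower than in Falcor-/-, beside 2.15% and 3.0%.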

How the data were processed

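The deposited values are log2 levels of 15544 genes in each of 18 libraries. The log base is not written in the files and was read as 2. Per the submitters' processing notes, STAR, limma and the mm9 build were used; the sources used here give no version, read counter or strand setting. Library medians (11.0293 to 11.0325) and values at equal rank were nearly the same in every library (largest gap 0.0512 in the top 90% of ranks), which shows that the authors equalized the distributions between libraries before deposit. Depth is therefore unknown, and counting error cannot be stated.

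Genes were named through GENCODE vM21, which gave a symbol to 14994 identifiers and none to 550. Genes with a mean below 6 (295) were left out and 15249 tested. The model, run in limma 3.58.1 (R 4.3.3), had a mean for each genotype over all 18 libraries and used empirical Bayes with an intensity trend; tests were 2-sided, with Benjamini-Hochberg adjustment and a threshold of 0.05. Exact permutation tests of single genes used 252, 126 or 70 regroupings, with smallest p of 0.00794, 0.00794 and 0.0286. The fit was tested on simulated data. Alternatives were no filter, no intensity trend, library weights, centring again, the 2 genotypes alone and leaving out each library. Promoter windows came from RefSeq. All members are named. Of the related genes, up to 4 changed genes per list and comparison with wild type are given with values, by smallest p. The remaining changed genes of those comparisons, Acacb and Thrsp, are named without values. The members and lists were chosen with earlier results of these data known.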

Additional observations from a re-analysis of the deposited data

Results flagged for a closer look

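In 140 groups of 4 or 5 libraries, 7 had a library far from the others by Dixon's criterion; chance flags about 1 in 20 groups (5%). Wild-type replicate 2 was high in Mvd (11.03, the others 10.70 to 10.79), in Elovl1 (15.49, the others 14.83 to 15.02) and in Elovl5 (14.53, the others 14.19 to 14.28). Falcor-/- replicate 8 was high in Mvd (11.42, the others 10.94 to 11.07) and in Fdft1 (12.81, the others 12.19 to 12.36). Labelled double-heterozygous replicate 18 was low in Sqle (12.17, the others 12.57 to 12.64). Foxa2+/- replicate 11 was low in Pcyt1a (13.14, the others 13.43 to 13.44).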

How the results depend on the processing

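The number of changed members against wild type was 0 in Falcor-/-, 1 with library weights, and 0 to 2 when each library was left out. It was 0 in Foxa2+/-, 4 with library weights, 4 when only the 2 genotypes were fitted, 1 after centring again, and 0 to 1 with a library left out. It was 2 in the labelled double-heterozygous group, and 1 to 3 with a library left out. Falcor-/- against Foxa2+/- gave 3 members, 6 with library weights, 1 with the 2 genotypes alone, and 1 to 6 with a library left out. The labelled double-heterozygous group gave 0 against Foxa2+/- (1 with library weights) and 0 against Falcor-/- (1 with library weights, 0 to 1 with a library left out).

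Over all genes, the count in Falcor-/- against wild type was 1444, 3446 with library weights, 483 with the 2 genotypes alone, and 354 to 3926 with a library left out. Foxa2+/- gave 932, 1947 with library weights, 1142 with the 2 genotypes alone and 556 to 1118, and the labelled double-heterozygous group 2254, 4939 with library weights and 1342 to 2435. Falcor-/- against Foxa2+/- gave 2540, 4757 with library weights, 1181 with the 2 genotypes alone and 764 to 4742. Labelled double-heterozygous against Foxa2+/- gave 370, 2125 with library weights and 90 to 381, and against Falcor-/- 785, 342 with the 2 genotypes alone and 412 to 1233. The causes were not tested.

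Falcor-/- replicate 7 decided the most member calls: without it Fasn and Acaca passed against wild type, and Fasn, Gpam and Pcyt1a (-0.82, -0.50 and -0.25) passed against Foxa2+/-. Pmvk and Chka passed in Foxa2+/- without wild-type replicate 3 (0.89) and replicate 1 (0.29). Pcyt1a also passed against Foxa2+/- without replicate 6 (-0.28) or 11 (-0.31), and Srebf1 passed against Falcor-/- without replicate 8 (0.32). The 5 called differences kept their direction under every alternative listed. The sterol response element was in 1 member as searched and in 3 without its first base, against 7.56% of genes. The added alternatives for r, chosen after seeing the data, left out the 2 farthest libraries or each genotype; without a genotype the sterol median r was 0.72 to 0.78. No paired analysis was possible because the replicate numbers run from 1 to 18 and no number occurs in more than 1 genotype.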
